A study of Sus scrofa with 6 samples.

Results

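The chemokine ligands of the ileal mucosa followed here were 10 genes, CCL5, CCL25, CCL20, CCL28, CCL14, CCL11, CCL21, CXCL12, CXCL14 and CX3CL1, out of 20648 genes in the count tables. They were chosen by name as known chemokine ligands, and no threshold on their counts was applied. Each was counted in barcodes with at least 1000 UMIs (unique molecular identifiers, one per captured transcript) and at least 500 genes, called cells below, and these cells were gated by the summed UMIs of lineage genes. The epithelial gate required at least 5 UMIs of EPCAM, KRT8 and VIL1, the T gate at least 2 of CD3E and CD3G, the myeloid gate at least 10 of LYZ, CST3 and AIF1, the stromal gate at least 5 of COL3A1, and the endothelial gate at least 3 of PECAM1 and FLT1. A B gate (at least 3 UMIs of a set of B lineage genes that includes MS4A1, CD79B and PAX5) was added because B lineage cells were the most numerous. A barcode could pass several gates, and barcodes with at most 100 UMIs were counted as a separate pool of droplets too shallow to be cells.

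The libraries came from piglets at birth (day 0) and at 1, 3, 7, 14 and 21 days of age, labelled male, of the Large White breed, kept on maternal milk with no antibiotics or additives. Scraped ileal mucosa was stripped with EDTA, digested briefly with TrypLE and loaded on 1 chip channel per age. The methods name 5 piglets per age, and how much each contributed to a channel is not given in the sources used here. Each age was therefore 1 library, a difference between ages had no replicate check and was not tested, and the 95% intervals given below cover counting error only. The tissue label says ileum, whereas the series design text names the cecum.

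Chemokines are small secreted proteins that bind G protein-coupled receptors on leukocytes and set the direction in which those cells migrate. In the small intestine, CCL25 from the epithelium draws CCR9-bearing T cells and plasma cell precursors, CCL20 draws CCR6-bearing B cells and dendritic cells towards lymphoid follicles, and CCL28 acts through CCR10 on IgA-producing cells. Vessels and stroma supply other ligands, among them CCL21 for the CCR7 route into lymphatics and CXCL12 for the CXCR4 route that retains haematopoietic cells.

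The 6 libraries held 10836 to 15956 cells (76099 in all) with 77391932 to 100348769 UMIs each and a median of 3693 to 4560 UMIs per cell. The makeup of the cells differed strongly between these matrices. The methods describe a survey of ileal epithelia at all 6 ages, whereas few epithelial cells were found here from day 3 on. Whether these matrices are those behind the study's own analysis was not tested, and the values by age describe the matrices as deposited. The B gate held 26.0% of cells on day 0 and 94.4% on day 21, whereas the epithelial gate held 2976 cells (27.5%) on day 0 and 1114, 103, 256, 36 and 1 at the later ages, and the T gate 2002 cells (18.5%) on day 0 and 311 (2.25%) on day 21. The stromal gate held 290, 373 and 206 cells on days 0, 1 and 3 and at most 2 afterwards. In the endothelial gate the blood endothelial list without the gate's own genes (PLVAP, VWF, EMCN, CDH5) summed to 28.4, 26.7, 9.95 and 3.07 UMIs per 10000 on days 0, 1, 3 and 7 but to 0.0549 and 0.112 on days 14 and 21, when only 1 of its 4 genes was detected. The plasma lineage list (JCHAIN, TXNDC5, IRF4, XBP1) stood there at 16.5 on day 7 and 12.7 on day 14 against 1.68 on day 0. The endothelial label of that gate therefore does not hold for days 14 and 21. On day 7 it holds for few of the gate's 38 barcodes, of which 4 were blood endothelial and 0 lymphatic. On day 3, 32 of its 64 barcodes also passed the B gate (18 of 271, 26 of 348 and 35 of 38 on days 0, 1 and 7), and 26 were blood endothelial. Any pair of libraries shared 31 to 68 cell barcodes, and 672 sequences occurred in more than 1 library.

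The genes lie on 7 pig chromosomes (Sscrofa11.1). CCL14 (chromosome 12, 39611887 to 39616050), CCL5 (39652731 to 39659121) and CCL11 (40779906 to 40782862) belong to the CC chemokine cluster of chromosome 12. CCL25 (71175066 to 71206950) and CXCL14 (137803988 to 137813118) are both on chromosome 2 but far apart. CX3CL1 is on chromosome 6 (19312351 to 19324439), CCL21 on chromosome 10 (32093783 to 32094482), CXCL12 on chromosome 14 (91516383 to 91543857), CCL20 on chromosome 15 (129172743 to 129176069) and CCL28 on chromosome 16 (27990024 to 28010859).

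The ligands differed in the lineages that held them. CCL5 was mainly in T cells, with a further part in myeloid barcodes on day 1, CCL25, CCL20 and CCL28 were epithelial, CCL11 was stromal, CCL21 was endothelial, and CCL14, CX3CL1, CXCL12 and CXCL14 were split over several lineages. Of the CCL5 UMIs in cells, 71.3% were in barcodes of the T gate alone. Barcodes of the epithelial gate alone held 72.2% of CCL25 and 56.7% of CCL20 UMIs, and those of the stromal gate alone held 86.1% of CCL11 UMIs. CCL14 was divided between myeloid (55.5%) and endothelial (29.0%) barcodes, CXCL12 between stromal (42.7%) and endothelial (32.0%), and CXCL14 between stromal (43.7%), myeloid (23.6%) and ungated (18.6%) barcodes. The UMIs behind these shares numbered from 50 for CCL28 to 167782 for CCL5 over all ages. The level of a gene in a pool is given throughout as its UMIs per 10000 UMIs of the pool.

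**Figure D1:**
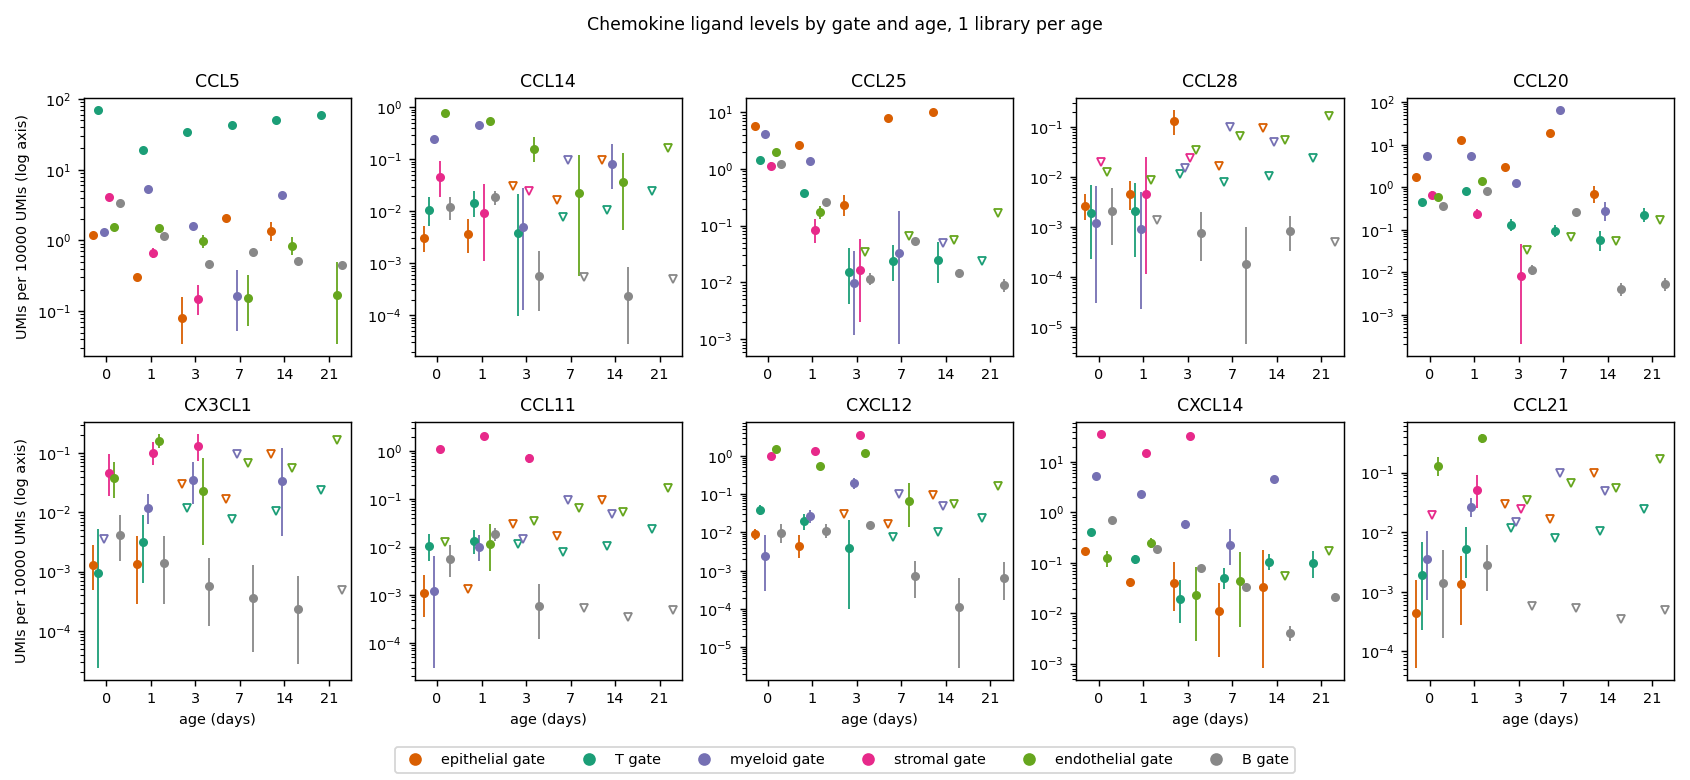
Level of each ligand (UMIs per 10000 UMIs, log axis) by gate and age (days), 1 library per age. Bars are 95% Poisson intervals, open triangles are pools with 0 UMIs drawn at the level 3 UMIs would give, and pools under 10 barcodes are not drawn. CCL5 is highest in the T gate at every age, and CCL21 has UMIs on days 0 and 1 alone.

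Whether a ligand recurred in a lineage across ages was tested by summing counts per library inside and outside a gate and fitting edgeR's quasi-likelihood model with the library as a block (Benjamini-Hochberg adjusted p below 0.05 is a call). A call therefore says that the contrast recurred over the libraries, each of another age. Gates are defined by absolute UMI numbers and so favour deep barcodes, with a median of 10394.5 UMIs in the epithelial gate of day 0 against 3693 in all cells.

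**Figure D2:**
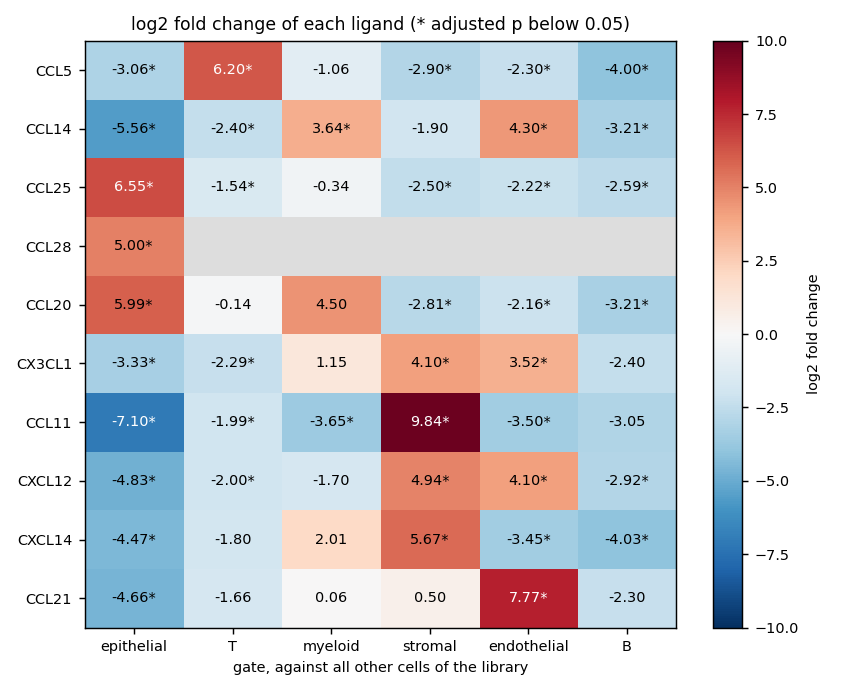
Fitted log2 fold change (colour and number) of the 10 ligands (rows) in 6 gates (columns) against all other cells of the same library; an asterisk marks an edgeR adjusted p below 0.05 and grey means not tested after the filter on low counts. The highest value of the T column is CCL5 at 6.20, and that of the stromal column is CCL11 at 9.84.

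In the T gate, CCL5 was the 1 ligand of the 10 to be called higher. CCL5, a ligand of CCR1 and CCR3 that cytotoxic lymphocytes store and release, stood at 70.1 (95% interval 69.6 to 70.6), 18.9, 34.5, 42.8, 49.96 and 58.5 (57.1 to 59.8) UMIs per 10000 on days 0, 1, 3, 7, 14 and 21. The lowest T gate value, that of day 1, was still above the highest value of the B gate, 3.36 on day 0. The contrast over 6 libraries gave a log2 fold change of 6.20 (SE 0.53, edgeR adjusted p = 1.06e-04). Of 9 ligands tested, 1 was higher and 5 lower in the T gate, where 8.86% of all 15299 genes were called higher, 21.2% lower and 30.1% either way. The 5 lower ones were CCL25 (log2 −1.54), CCL14 (−2.40), CX3CL1 (−2.29), CCL11 (−1.99) and CXCL12 (−1.997), and with DESeq2 only CCL25 of these kept its call, while CCL11 turned to 1.35 (adjusted p = 0.788). CX3CL1, CCL14 and CCL11 lost their calls without day 0 or day 1, CCL11 also without day 3, CXCL12 without day 1 and CX3CL1 with gate thresholds doubled (edgeR adjusted p from 0.0547 to 0.197).

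CCL5 was higher in CD8 than in CD4 T barcodes at every age. Within the T gate, barcodes with a CD8A or CD8B UMI and none of CD4 (965 over all ages) were set against those with CD4 and no CD8A or CD8B (635). The CD8 level was 71.9, 25.4, 41.6, 85.4, 85.4 and 116 (95% interval 112 to 119) at the ages in the same order. The CD4 level was 7.21, 0.326, 0.0762, 4.31, 1.01 and 1.24 at the same ages. The ranges did not overlap, although 103 of the 407 CD4 UMIs of day 0 and 211 of the 419 of day 7 came from 1 barcode each. Most T barcodes belonged to neither subset, and these held 99996 of the 139285 CCL5 UMIs of the T gate, at 74.0, 21.2, 43.9, 37.3, 40.6 and 39.3 on the 6 ages. They were above the CD4 level at every age, and below the CD8 level on days 1, 7, 14 and 21. The log2 fold change was 5.40 (SE 0.49, edgeR adjusted p = 5.50e-05), 1 of the 4 ligands tested being called, against 2.20% of 8221 genes called higher, 1.20% lower and 3.41% either way.

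In CD8 barcodes the ages had nearly the same order by share with CCL5 as by level, days 14 and 21 changing places. On days 0, 1, 3, 7, 14 and 21, 65.4%, 33.2%, 54.2%, 67.9%, 77.6% and 72.0% of CD8 barcodes had a CCL5 UMI, and 59.4%, 27.3%, 44.4%, 62.8%, 73.7% and 70.0% after each barcode was thinned to 1000 UMIs. The day 1 share was the lowest and the day 14 share the highest in both forms, while the level was highest on day 21. The shares of days 14 and 21 (152 and 100 barcodes) had overlapping intervals, so their order is within counting error. In CD4 barcodes the shares were 8.55%, 5.83%, 5%, 29.1%, 18.5% and 18.2%, and 6.84%, 1.79%, 1.25%, 12.8%, 7.41% and 11.4% after thinning. B gate barcodes were taken as a background, and whether B cells make CCL5 was not tested. They had a CCL5 UMI in 13.6%, 9.69%, 9.05%, 6.44%, 7.41% and 5.46%. Their median depths were 3475.5 to 4714 UMIs, against 3421 to 6243 in CD4 barcodes. The CD4 shares of days 0, 1 and 3 were below those of the B gate. The B gate, here and in the backgrounds below, includes barcodes that also passed another gate. On days 0, 1 and 3, 117, 99 and 52 of its barcodes passed the T gate. Barcodes of the B gate alone held 6619 of the gate's 20769 CCL5 UMIs, so the gate can overstate the background of B cells. Barcodes outside all gates with at least 3 UMIs of the NK and innate lymphoid list (which includes KLRB1, NKG7, GNLY, IL7R and KIT) stood at 13.6, 6.15, 3.26, 13.7, 29.4 and 98.1 (7 barcodes on day 21), a split made after the values were seen.

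**Figure D3:**
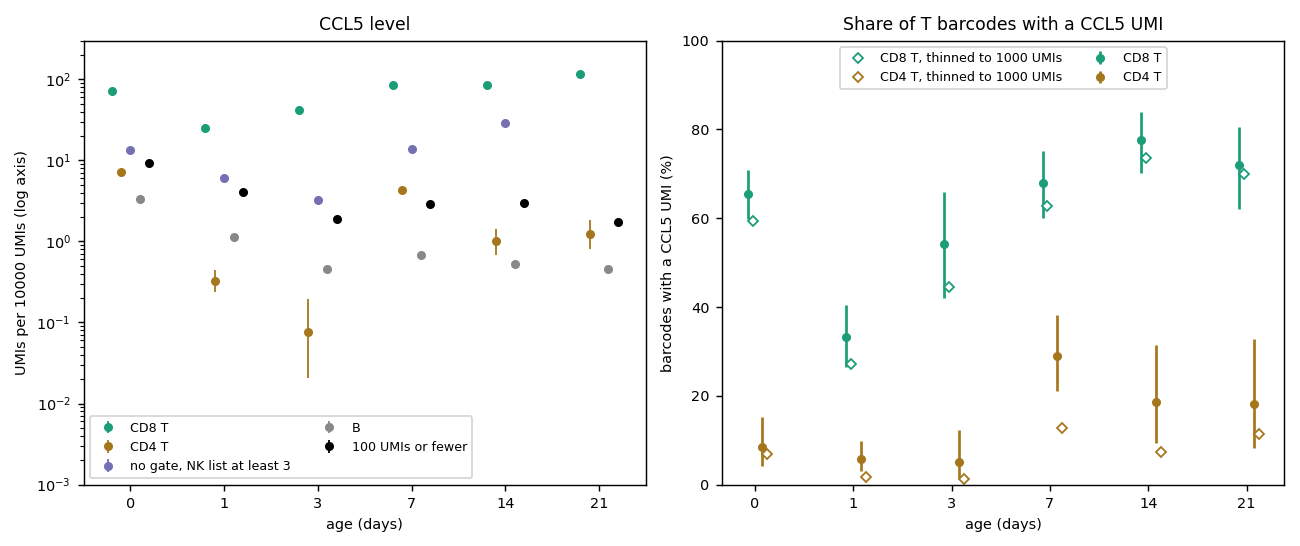
CCL5 by age (days, 1 library each): left, level (UMIs per 10000 UMIs, log axis, bars 95% Poisson intervals) in CD8 and CD4 T barcodes, ungated barcodes with NK genes, the B gate and barcodes of at most 100 UMIs; right, percent of CD8 and CD4 barcodes with a CCL5 UMI (bars exact binomial 95% intervals), with open diamonds after thinning to 1000 UMIs. CD8 barcodes lie above CD4 barcodes at all 6 ages, 116 against 1.24 on day 21.

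Over all cells the ages had another order. CCL5 was 10.9, 4.09, 1.92, 2.98, 2.002 and 1.37 on days 0, 1, 3, 7, 14 and 21, while the T gate held a smaller share of cells with age. Myeloid barcodes also held CCL5. Those with the macrophage list (defined with CCL14 below) and outside the epithelial gate were at 6.22, 13.5, 1.52, 0.504 and 5.58 on days 0, 1, 3, 7 and 14. These barcodes could also pass the T or B gate, and barcodes of the myeloid gate alone held 104 CCL5 UMIs on day 0 and 4932 on day 1. Droplets with at most 100 UMIs were at 9.42, 4.10, 1.88, 2.90 and 2.98 at the same ages. The macrophage-list level was above theirs on days 1 and 14 only. The other myeloid barcodes with the neutrophil and monocyte list were at 5.25 on day 1 and 9.57 on day 14 (167 and 17 barcodes). Barcodes of the myeloid gate alone held 17.4% of all CCL5 UMIs on day 1. Over the whole myeloid gate the contrast was not called (log2 −1.06, SE 0.87, edgeR adjusted p = 0.442). In a pool of all cells, fewer cells of a type and less RNA per cell cannot be told apart.

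The epithelium carried 3 ligands: CCL25, CCL20 and CCL28. All 10 ligands were tested in the epithelial gate (5 libraries, day 21 having a single cell), 3 being called higher and 7 lower, where 20.1% of 15431 genes were higher, 22.5% lower and 42.6% either way. CCL25 gave a log2 fold change of 6.55 (SE 1.21, edgeR adjusted p = 0.00709), CCL20 5.99 (SE 0.88, adjusted p = 0.00365) and CCL28 5.004 (SE 1.12, adjusted p = 0.0129). CCL28 had 35 of its 50 UMIs in the epithelial gate and was tested in no other gate. It passed the filter on low counts through the epithelial pools alone, so its call adds no support to the counts. The 7 lower ligands ranged from CCL5 at −3.06 to CCL11 at −7.10. CCL5 lost its call without day 0, 1 or 3 (adjusted p = 0.0817, 0.0642 and 0.0836), CX3CL1 without day 1 (0.0551), and CX3CL1, CCL21, CCL14 and CCL11 lost theirs with DESeq2, CCL21 turning to 3.60 (adjusted p = 0.332).

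CCL25, the CCR9 ligand, was found in the epithelial gate, at levels that differed between its subsets. Its level in the epithelial gate was 5.66 (95% interval 5.59 to 5.73), 2.61, 0.231 (23 UMIs), 7.98 and 9.85 (8.77 to 11.02) on days 0, 1, 3, 7 and 14. Day 3 stood apart, with a level below that of any other age with at least 10 epithelial barcodes. On that day the enterocyte list (APOA1, APOA4, APOC3, RBP2, FABP2, FABP6) was also low in the gate, at 8.61 UMIs per 10000 against 56.9, 141, 160 and 238 on days 0, 1, 7 and 14. Its part in the low CCL25 was not tested.

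Among epithelial subsets, CCL25 was higher in enterocyte than in crypt barcodes on days 0, 1 and 7. Enterocyte barcodes had at least 10 UMIs of APOA1, APOA4, APOC3, RBP2 and FABP2, and under 5 of OLFM4 and SPINK1. CCL25 measured 7.96, 2.96, 14.0 and 10.7 there on days 0, 1, 7 and 14, and 0 in the 12 enterocyte barcodes of day 3, where 3 UMIs would have given 0.261. Crypt barcodes (at least 5 UMIs of OLFM4 and SPINK1, enterocyte genes under 10) had 2.16, 0.932, 0.538 and 4.77 (9 barcodes) on days 0, 1, 3 and 7. On day 0 a CCL25 UMI was in 79.7% of crypt and 62.2% of enterocyte barcodes (20.3% and 35.8% after thinning). The crypt to enterocyte difference was not called (log2 −1.06, SE 0.83, edgeR adjusted p = 0.449 over days 0, 1 and 3). It was called without day 3 (−1.90, adjusted p = 1.46e-04), in barcodes of 1 gate only (−1.66) and with gate thresholds doubled (−1.99), and was 0.01 without day 0.

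Hormone-secreting cells held less CCL25 than the rest of the epithelium. Enteroendocrine barcodes (at least 3 UMIs of CHGA and CHGB) were at 2.41, 0.965, 0 and 0.341 on days 0, 1, 3 and 7, against 6.13, 2.71, 0.309 and 8.37 in other epithelial barcodes. They were the lower of the pair at each of the 4 ages. The log2 fold change was −2.29 (SE 0.43, edgeR adjusted p = 0.00369), and 2 of 4 ligands tested were called lower, against 9.83% of 10977 genes higher, 10.8% lower and 20.6% either way (1079 higher and 1184 lower, against 1686 and 680 with library size alone). In barcodes with at least 10 UMIs of the goblet list, a split made after values were seen, CCL25 was 0.591, 0.543 and 0.0822 on days 0, 1 and 3.

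A CCL25 UMI was found in 46.3%, 46.8%, 10.7%, 35.2% and 86.1% of epithelial barcodes on days 0, 1, 3, 7 and 14, and in 22.6%, 14.9%, 2.91%, 25.4% and 52.8% after thinning. B gate barcodes, taken as a background, had one in 7.40%, 2.31%, 0.699%, 0.904% and 0.405%, and in 2.35%, 0.561%, 0.166%, 0.292% and 0.0877% after thinning. Those of the B gate alone held 433 of the gate's 2817 CCL25 UMIs over all ages. The epithelial share was above this background at each of these ages. Over all cells CCL25 was 3.51 on day 0 and then 0.857, 0.0169, 0.249, 0.0405 and 0.0087, while the epithelial gate held fewer cells. Barcodes with at most 100 UMIs gave 2.73, 0.825, 0.0311, 0.205, 0.0325 and 0.0113, in the same order of ages. Their day 0 level was above those of the crypt, enteroendocrine and goblet-list barcodes of that day.

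CCL20, the CCR6 ligand of follicle-associated epithelium and of inflamed epithelium, had its high and low ages in another order than CCL25. In the epithelial gate it was 1.74 (95% interval 1.70 to 1.78), 12.7 (12.6 to 12.9), 3.02, 18.5 (17.8 to 19.1) and 0.685 on days 0, 1, 3, 7 and 14. Days 1 and 7 were high and the other ages low, but 1965 of the 3332 UMIs of day 7 were in 8 barcodes that also passed the myeloid gate. In epithelial barcodes outside the myeloid gate, a split made after values were seen, CCL20 was 0.862, 12.7, 0.504, 8.25 and 0.685, so that day 1 was then the highest age. A CCL20 UMI was found in 19.2%, 66.9%, 9.71%, 37.5% and 13.9% of epithelial barcodes, and in 6.79%, 40.1%, 5.83%, 27.7% and 8.33% after thinning. The B gate background was 2.92%, 9.22%, 0.213%, 1.67% and 0.0675%.

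On day 1, enterocyte barcodes were at 16.8 with a UMI in 80.5% of 733 barcodes, while on day 7 they were at 2.83 with a UMI in 27.4% of 84. The epithelial gate was also split at 3 UMIs of the follicle-associated epithelium and M cell list (GP2, TNFRSF11A, TNFAIP2, SPIB), after values were seen and with no test. With the list at 3 or more, CCL20 was 8.97, 10.0, 11.3 and 52.0 on days 0, 1, 3 and 7 (176, 121, 17 and 84 barcodes), and with the list under 3 it was 0.737, 13.3, 0.421 and 1.79. Leaving out barcodes of the myeloid gate changed these values: list-bearing barcodes were then at 2.31, 3.68, 0.831 and 25.4 (104, 75, 14 and 76 barcodes) and the others at 0.771, 13.8, 0.421 and 1.79. With or without those barcodes, list-bearing cells were above the rest on day 7 and below it on day 1, while on day 3 the intervals without them overlapped (0.475 to 1.35 and 0.288 to 0.595).

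CCL25 was lower in list-bearing barcodes at these 4 ages, with overlapping intervals on day 3. List-bearing barcodes had 3.28, 2.09, 0.084 and 0.384 CCL25 UMIs per 10000 on days 0, 1, 3 and 7, and the rest had 5.99, 2.72, 0.277 and 11.8. On day 7, 83.3% of list-bearing barcodes had a CCL20 UMI and 5.95% a CCL25 UMI, against 15.1% and 49.4% of the others.

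Crypt barcodes had little CCL20, at 0.121, 0.910 and 0.793 on days 0, 1 and 3 against 1.36, 16.8 and 0 in enterocyte barcodes, but the difference was not called (log2 −2.65, SE 1.36, edgeR adjusted p = 0.243). It was called without day 3, whose enterocyte pool held 12 barcodes (−3.99, adjusted p = 9.17e-07), with no filter on low counts (−2.68, adjusted p = 2.81e-04), in barcodes of 1 gate only (−4.48) and with gate thresholds doubled (−4.06). Enteroendocrine barcodes were lower than the rest of the epithelium, at 0.813, 2.87, 1.15 and 0.681 against 1.87, 13.3, 3.65 and 19.4 (log2 −2.49, SE 0.42, edgeR adjusted p = 0.00204). In barcodes of 1 gate only, this call was lost (−1.10, adjusted p = 0.205). Barcodes with at most 100 UMIs had CCL20 at 0.767, 5.71 and 0.0467 on days 0, 1 and 3. These levels were above the crypt values of days 0 and 1 and below that of day 3. The day 1 level was also above the enteroendocrine value and that of list-bearing barcodes outside the myeloid gate.

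**Figure D4:**
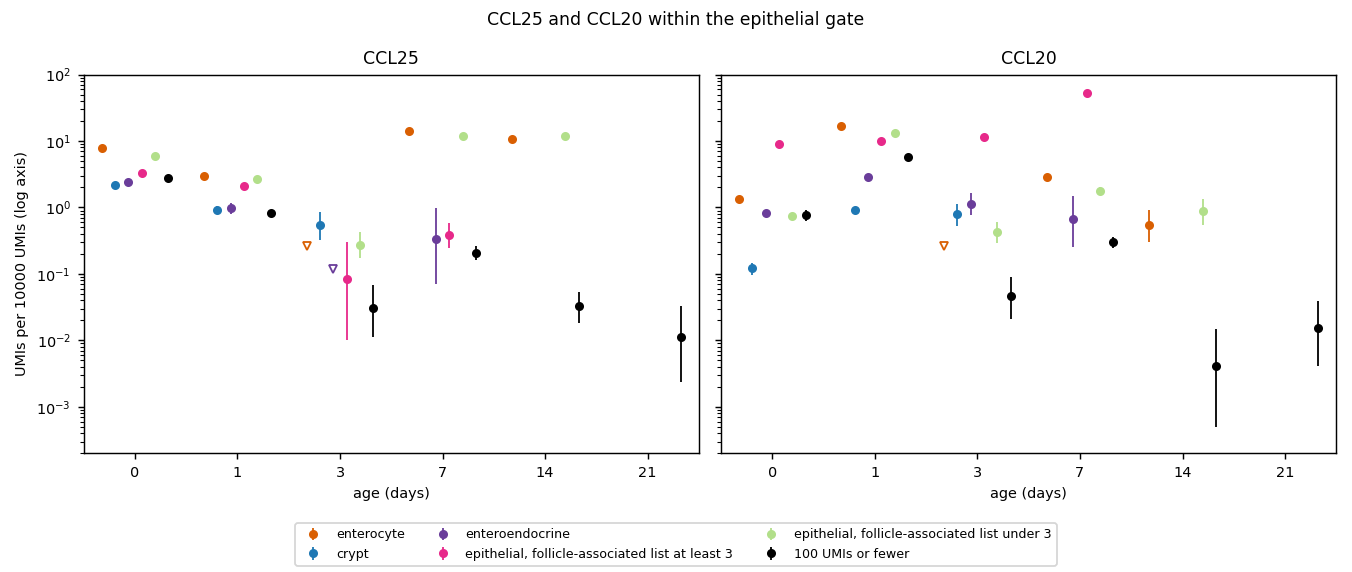
Levels of CCL25 and CCL20 (UMIs per 10000 UMIs, log axis) by age (days, 1 library each) in subsets of the epithelial gate and in barcodes of at most 100 UMIs. Bars are 95% Poisson intervals, open triangles are pools with 0 UMIs drawn at the level 3 UMIs would give, and pools under 10 barcodes are not drawn. On day 7 barcodes with the follicle-associated list lie highest for CCL20 (52.0, or 25.4 without barcodes of the myeloid gate) and low for CCL25 (0.384).

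CCL20 also appeared in the myeloid gate, at 5.43, 5.50, 1.27, 64.2 and 0.282 on days 0, 1, 3, 7 and 14 (log2 4.50, SE 1.16, edgeR adjusted p = 0.0521). The contrast was called with DESeq2 (4.61, adjusted p = 1.79e-06), with gate thresholds doubled (5.06, edgeR adjusted p = 0.0223) and without day 1 (5.51, edgeR adjusted p = 0.0242). Nearly all of it lay in barcodes that passed the epithelial gate as well. Those barcodes (130, 97, 3 and 8 on days 0, 1, 3 and 7) were at 7.23, 12.8, 55.7 and 133, and myeloid barcodes outside the epithelial gate at 0.0287, 0.510, 0.0152 and 0.0628. The single richest barcode held 575 CCL20 UMIs on day 7. In barcodes of 1 gate only, the myeloid value turned to −1.22 (adjusted p = 0.547), and whether the shared barcodes were doublets or single cells was not tested.

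CCL28, the CCR10 ligand of mucosal epithelia, was nearly absent from the ileal cells. It had 13, 10, 19, 1, 7 and 0 UMIs in all cells on days 0, 1, 3, 7, 14 and 21, and none in any library's barcodes of at most 100 UMIs. In the epithelial gate it was 0.00263, 0.00455 and 0.130 (95% interval 0.0694 to 0.223) on days 0, 1 and 3, the last from 13 UMIs in 9 of 103 barcodes, and 0 UMIs later. Of the 50 UMIs, 11 were in barcodes of the B gate alone.

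Within the epithelium, CCL28 belonged to the crypt. Crypt barcodes had 11, 9 and 13 UMIs on days 0, 1 and 3, which is 0.0137, 0.0286 and 0.368 (0.196 to 0.630) per 10000, with a UMI in 3.50%, 5.08% and 30.0% of 286, 118 and 30 barcodes. Enterocyte barcodes had none at these ages. Against the level that 3 UMIs over the enterocyte pools would give, the crypt level over the 3 ages was at least 39.0-fold higher (33 UMIs). CCL28 was the 1 ligand of 5 tested that edgeR called between crypt and enterocyte barcodes (adjusted p = 0.00875). Of all 12055 genes, 6.20% were called higher, 8.25% lower and 14.5% either way. With no enterocyte UMI, CCL28 passed the filter on low counts through the crypt pools alone. Its call could only be higher and adds no support to the counts. In the fits without day 0 or without day 1, CCL28 did not pass the filter on low counts and was not tested. After thinning to 1000 UMIs, 1 crypt barcode on day 0 and none on days 1 and 3 kept a CCL28 UMI, so a difference between days 0 and 3 was not detectable at equal depth.

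The endothelial gate was enriched for 4 ligands, CCL21, CCL14, CXCL12 and CX3CL1, and lower for the other 5 tested. In this gate 8.21% of 15205 genes were called higher, 14.4% lower and 22.6% either way (1248 higher and 2182 lower, against 1539 and 892 with library size alone and 1219 and 399 with DESeq2). With days 0, 1 and 3 alone, all 9 ligands kept their direction and call. CCL21 gave a log2 fold change of 7.77 (edgeR adjusted p = 2.31e-04), CCL14 4.30 (SE 0.71, adjusted p = 0.00266), CXCL12 4.10 (SE 0.48, adjusted p = 2.49e-04) and CX3CL1 3.52 (SE 0.47, adjusted p = 7.99e-04). CCL21 had 162 of its 172 UMIs in this gate, and all 172 were from days 0 and 1. It passed the filter on low counts through the endothelial pools alone, so its call adds no support to the counts. With DESeq2, CCL21 (adjusted p = 0.0911) and the lower CCL11 (0.268) lost their calls. CCL11 also lost its call without day 0 or day 1 (adjusted p = 0.0605 and 0.0684), and the lower CCL5 in barcodes of 1 gate only (0.0750).

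CCL21, the CCR7 ligand made by lymphatic endothelium and lymphoid stroma, was a lymphatic transcript in these libraries and was seen on the first 2 ages alone. All 172 UMIs in cells were from day 0 (34) and day 1 (138). Lymphatic barcodes (at least 2 UMIs of PROX1, LYVE1, MMRN1 and FLT4; 70 and 105 barcodes) were at 0.443 (95% interval 0.301 to 0.629) and 1.24 (1.04 to 1.48), with a UMI in 30.0% and 44.8% of them. Blood endothelial barcodes (at least 2 UMIs of PLVAP, VWF and EMCN and under 2 lymphatic UMIs; 184 and 206 barcodes) had none, which allows levels of up to 0.0253 and 0.0159. The lymphatic level was at least 94.6-fold higher than the level that 3 UMIs over both blood pools would give, and edgeR called it while DESeq2 did not (adjusted p = 0.322). With no UMI in the blood pools, CCL21 passed the filter on low counts through the lymphatic pools alone. Its call could only be higher and adds no support to the counts. Only 3 lymphatic barcodes were present on day 3 and none later, so the absence of CCL21 from day 3 on cannot be told apart from the absence of the cells.

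CCL14, a plasma chemokine that acts on CCR1, and CXCL12 were instead higher in blood endothelium. CCL14 was 1.38 (1.18 to 1.61) and 0.710 (0.595 to 0.841) in blood endothelial barcodes on days 0 and 1, against 0.286 and 0.361 in lymphatic ones (log2 −1.68, SE 0.29, edgeR adjusted p = 0.00121). CXCL12 was 2.89 and 0.869 against 0.100 and 0.256 (log2 −3.13, SE 0.44, adjusted p = 3.30e-04), a call lost with DESeq2 (adjusted p = 0.115). On day 3 the 26 blood endothelial barcodes were at 0.504 for CCL14 and 5.14 (4.19 to 6.24) for CXCL12. Of 8 ligands tested between lymphatic and blood barcodes 2 were higher and 2 lower, against 8.64% of 9246 genes higher, 6.82% lower and 15.5% either way (799 and 631, against 752 and 362 with library size alone). The fit had only the libraries of days 0 and 1. The second higher ligand, CCL20 (log2 3.18, edgeR adjusted p = 1.51e-04), had all 126 of its day 0 lymphatic UMIs and 144 of the 198 of day 1 in 1 barcode each.

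Over the whole endothelial gate CCL14 was 0.785, 0.541, 0.160, 0.0222, 0.0366 and 0 at the ages in order. From day 7 on, few or no barcodes of that gate were endothelial. CCL14 was also called in the myeloid gate (0.244, 0.450, 0.00496, 0 and 0.0829 on days 0, 1, 3, 7 and 14; log2 3.64, SE 0.89, edgeR adjusted p = 0.0447). That call was lost without day 0, 1 or 3 (adjusted p = 0.0801, 0.167 and 0.0748) and with no filter on low counts (0.0529). Within the myeloid gate and outside the epithelial gate, barcodes with at least 3 UMIs of the macrophage list (C1QA, C1QB, C1QC, CD163, CSF1R) had CCL14 at 1.78 (1.54 to 2.05) and 1.19 (1.08 to 1.30) on days 0 and 1. The other barcodes with at least 5 UMIs of the neutrophil and monocyte list were at 0.885 (2 UMIs in 4 barcodes) and 0.558 (0.405 to 0.749, 44 UMIs in 167 barcodes), and those with neither list had 0 and 1 UMI. The split was made after values were seen. On day 3 the 35 macrophage-list barcodes held 1 CCL14 UMI.

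CX3CL1, the membrane-tethered ligand of CX3CR1, was sparse, with 25, 107, 24, 3, 3 and 0 UMIs in all cells. In the endothelial gate it was 0.0378 (0.0173 to 0.0718), 0.162 (0.122 to 0.211) and 0.0228 on days 0, 1 and 3. The day 1 value was above the others beyond counting error. Blood endothelial barcodes were at 0.0591 and 0.212 and lymphatic ones at 0.0286 and 0.142 on days 0 and 1, a difference that was not called (log2 −0.78, edgeR adjusted p = 0.333). In the stromal gate CX3CL1 was 0.0462, 0.101 and 0.131 on days 0, 1 and 3 (log2 4.10, SE 0.75, edgeR adjusted p = 0.00638).

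The stroma carried CCL11, CXCL14 and, beside the endothelium, CXCL12. In the stromal gate (days 0, 1 and 3), 4 of 9 ligands tested were called higher and 3 lower, against 13.4% of 15196 genes higher, 11.7% lower and 25.1% either way. With library size alone as the scale, 2521 genes were higher and 1028 lower, against 2041 and 1773, and CCL20 lost its call (adjusted p = 0.0782). CCL11, eotaxin, the CCR3 ligand that draws eosinophils, had a log2 fold change of 9.84 (SE 0.40, edgeR adjusted p = 2.63e-05), CXCL14, an epithelial and stromal chemokine, 5.67 (SE 0.79, adjusted p = 0.00186) and CXCL12 4.94 (SE 0.50, adjusted p = 3.90e-04). CCL11 had 717 of its 740 UMIs in the stromal gate. It passed the filter on low counts through the stromal pools alone, so its call adds no support to the counts. The 3 lower ligands were CCL5 (−2.90), CCL20 (−2.81) and CCL25 (−2.50). CCL20 also lost its call without day 3 and CCL25 without day 1 (edgeR adjusted p = 0.0529 and 0.0563).

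CCL11 was the most restricted of the stromal ligands. In the stromal gate it was 1.12 (0.959 to 1.30), 2.12 (1.93 to 2.32) and 0.710 (0.569 to 0.876) on days 0, 1 and 3, with 740 UMIs over all cells. No cell of days 7, 14 or 21 had one, which allows a level of up to 0.000482 over all cells (3 UMIs on day 7), and the stromal gate was then close to empty. Fibroblast barcodes (at least 3 UMIs of PDGFRA, DCN and LUM and under 10 of the muscle genes) were at 1.62, 2.58 and 1.13 and muscle or pericyte barcodes (at least 10 UMIs of ACTA2, MYH11, DES and TAGLN) at 0.367, 0.763 and 0.403. Fibroblasts were higher at each of the 3 ages, and the log2 fold change of muscle or pericyte over fibroblast barcodes was −1.80 (SE 0.21, edgeR adjusted p = 0.00247). Of 6 ligands tested in that contrast 2 were lower, against 2.21% of 8088 genes higher, 2.02% lower and 4.23% either way.

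CXCL12 was highest on day 3 in the stroma. Its level was 1.002 (0.849 to 1.18), 1.31 (1.17 to 1.48) and 3.45 (3.12 to 3.79) on days 0, 1 and 3, with a UMI in 28.6%, 32.7% and 51.0% of barcodes, or 12.4%, 12.9% and 25.2% after thinning. Fibroblast barcodes were at 1.30, 1.14 and 3.70 and muscle or pericyte barcodes at 0.611, 1.92 and 3.12. The 2 subsets changed order between ages, and their difference was not called (log2 −0.16, SE 0.30, edgeR adjusted p = 0.891). In the endothelial gate it was 1.47, 0.553 and 1.18, but in the blood endothelial barcodes of that gate day 3 was the highest age as in the stroma (2.89, 0.869 and 5.14). On day 0 barcodes of the endothelial gate alone held 54.6% of CXCL12 UMIs and those of the stromal gate alone 24.4%, against 16.1% and 59.6% on day 3. All cells together held 562, 572 and 604 CXCL12 UMIs on days 0, 1 and 3 and 4, 1 and 4 afterwards.

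CXCL14 in the stromal gate was 35.4 (34.5 to 36.4), 14.97 (14.5 to 15.5) and 32.4 (31.4 to 33.5) on days 0, 1 and 3, found in 89.7%, 86.6% and 77.7% of barcodes (73.8%, 59.5% and 56.3% after thinning). The B gate background was 5.37%, 2.47% and 1.16%. Fibroblast barcodes were at 44.7, 15.9 and 52.3 and muscle or pericyte barcodes at 21.4, 12.3 and 17.0 (log2 −1.04, SE 0.22, edgeR adjusted p = 0.0345), a call lost without day 3 (−0.73, adjusted p = 0.232) and with gate thresholds doubled (−1.09, adjusted p = 0.0675). Day 1 was the low age in both subsets.

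CXCL14 was also found outside the stromal gate. Myeloid barcodes with the macrophage list had CXCL14 at 37.8 (36.7 to 39.0), 6.22, 1.15, 0.672 and 11.4 on days 0, 1, 3, 7 and 14. On day 21 the whole amount, 188 UMIs, was in 1 of 3 such barcodes. Over the myeloid gate the contrast was not called (log2 2.01, SE 0.81, edgeR adjusted p = 0.149), although DESeq2 called it (2.10, adjusted p = 0.0217). Ungated barcodes with at least 3 UMIs of the muscle and fibroblast lists had 39.0, 7.60 and 3.77 on days 0, 1 and 3 and 362 on day 14, the last being 785 UMIs in 6 barcodes. They held 2940 of the 4904 ungated CXCL14 UMIs over all ages. Most of the ungated CXCL14 UMIs were thus in barcodes with muscle or fibroblast genes. Ungated barcodes with the NK and innate lymphoid list held 930, and these groups could overlap. Both splits were made after values were seen, and whether the ungated CXCL14 came from another lineage was not tested.

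**Figure D5:**
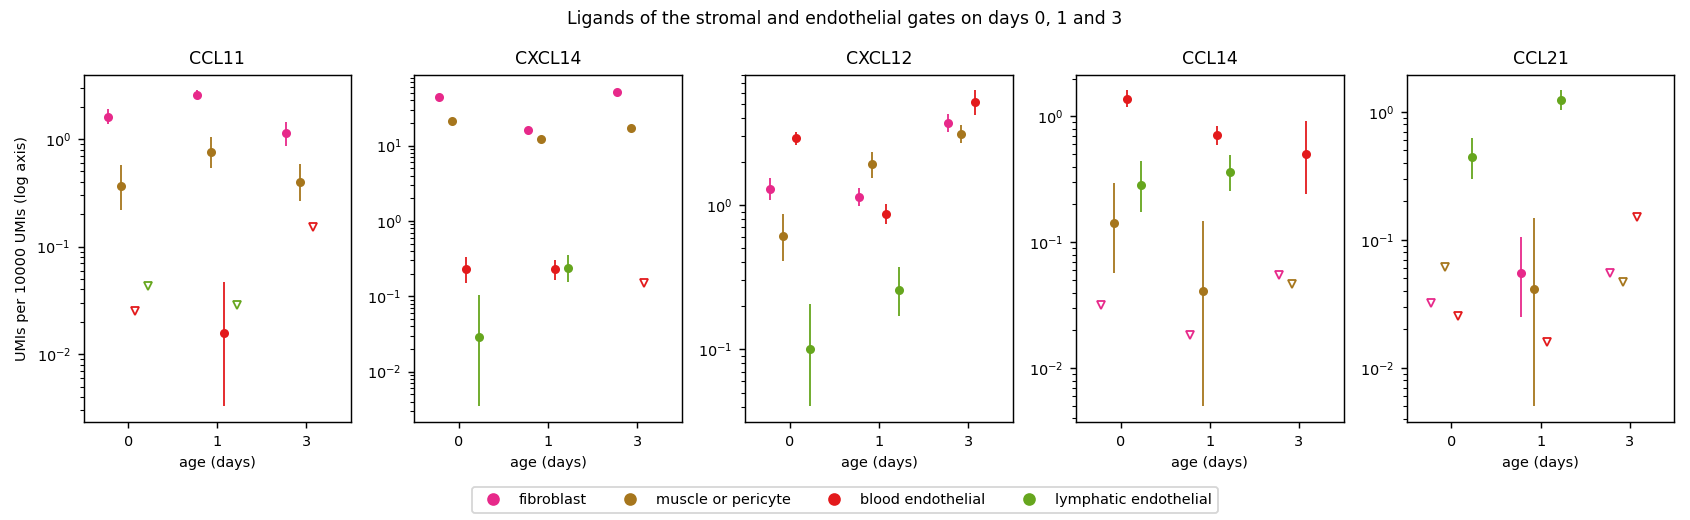
Levels of CCL11, CXCL14, CXCL12, CCL14 and CCL21 (UMIs per 10000 UMIs, log axis) on days 0, 1 and 3 (1 library each) in fibroblast, muscle or pericyte, blood endothelial and lymphatic endothelial barcodes. Bars are 95% Poisson intervals, open triangles are pools with 0 UMIs drawn at the level 3 UMIs would give, and pools under 10 barcodes are not drawn. CCL11 is highest in fibroblasts at the 3 ages, and CCL21 is highest in lymphatic endothelial barcodes on days 0 and 1 (0.443 and 1.24).

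Between days 0 and 1 the ligands moved in different directions within their main gate. The level ratio of day 1 to day 0, with its 95% counting interval, was 7.31 (7.13 to 7.49) for CCL20 in the epithelial gate, 2.91 (1.96 to 4.46) for CCL21 in the endothelial gate, 1.89 (1.58 to 2.27) for CCL11 and 1.31 (1.07 to 1.61) for CXCL12 in the stromal gate. It was 0.269 (0.265 to 0.273) for CCL5 in the T gate, 0.422 (0.404 to 0.441) for CXCL14 in the stromal gate and 0.461 (0.448 to 0.474) for CCL25 in the epithelial gate. CCL28 gave 1.73 (0.670 to 4.37), which includes 1. No ratio was taken for CX3CL1, which had 9 UMIs in the endothelial gate on day 0 and 56 on day 1 (0.0378 and 0.162). In barcodes of 1 gate only the CCL20 ratio was 15.7 and the CXCL12 ratio 1.07. CXCL12 was higher on day 1 than on day 0 in muscle or pericyte barcodes, but not in fibroblast barcodes or the endothelial gate. The myeloid CCL14 ratio of 1.85 (1.57 to 2.19) turned to 0.798 in barcodes of 1 gate only and to 0.849 as a mean over barcodes. The makeup of a gate also differed between these 2 libraries, and its part in these ratios was not tested.

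B lineage cells were the bulk of the later libraries, and none of the 9 ligands tested there was called higher in the B gate (CCL28 was not tested). Barcodes of the B gate alone still held 58 of the 110 CCL25 UMIs of day 3, all 55 of day 21, all 8 CCL28 UMIs of days 7 and 14 and 62.2% of CXCL14 UMIs on day 7, being 76.8% to 96.0% of all UMIs of cells from day 3 on. In this gate 6 of 9 tested were called lower (CCL5, CCL14, CCL25, CCL20, CXCL12 and CXCL14, log2 −2.59 to −4.03) and the other 3 were not called. CCL25 lost its call without day 7 (edgeR adjusted p = 0.0768) and CXCL14 without day 3 or day 21 (0.0693 and 0.0570). Here 23.7% of 15515 genes were higher, 28.7% lower and 52.4% either way (3684 and 4448, against 1669 and 5835 with library size alone, where 8 ligands were lower). In the myeloid gate 1 of 9 was higher (CCL14) and 1 lower (CCL11, log2 −3.65), against 4.05% of 15269 genes higher, 6.45% lower and 10.5% either way (618 and 985, against 766 and 763 with library size alone and 1554 and 1195 with DESeq2). The CCL11 call was lost without day 0, 1 or 3 (edgeR adjusted p = 0.106, 0.115 and 0.0851) and with DESeq2 (log2 −1.44, adjusted p = 0.664).

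Droplets with at most 100 UMIs (1033288 to 1459372 per library) carried these ligands at levels close to those of the cells for some ages. CCL5 was 9.42, 4.10, 1.88, 2.90, 2.98 and 1.74 there on days 0, 1, 3, 7, 14 and 21. CCL20 was 0.767 on day 0 and 5.71 on day 1, then 0.0467, 0.300, 0.00406 and 0.0151, so its day 1 peak was present outside cells too. CXCL14 was an exception on days 7 and 21: the shallow droplets were at 2.78 (973 UMIs) and 1.43 (377 UMIs), while all cells were at 0.0455 and 0.0702. On the other 4 ages the pairs were 1.75 and 1.72, 1.30 and 1.02, 0.555 and 0.686, and 0.0872 and 0.128.

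The other 22 chemokine ligand genes of the files showed the family's wider spread over lineages. In the T gate 2 of 20 tested were higher, XCL1 (log2 5.27) and CCL4 (2.90), and 10 were lower, against 8.86% and 21.2% of all genes. Both were also higher in CD8 than in CD4 barcodes (XCL1 5.20, CCL4 3.27), as CCL5 was. In the myeloid gate 7 of 20 were higher and 1 lower (4.05% and 6.45% of all genes). Among the higher ones were CCL8 (6.53), a monocyte attractant, CCL17 (5.60) and CCL22 (5.20), the CCR4 ligands of dendritic cells, and CXCL16 (4.45). The median log2 fold change there was 2.37 over these 20 genes, −0.17 over all genes tested and 0.06 over the 9 tested of the 10 ligands.

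In the stromal gate 6 of 17 were higher and 3 lower (13.4% and 11.7% of all genes). The higher ones were led by CCL19 (7.61), the other CCR7 ligand, and CCL2 (6.11), a monocyte attractant, with CXCL13 (4.25), the CXCR5 ligand of B cell follicles. In the endothelial gate 3 of 19 were higher, CCL24 (4.90), CCL26 (2.65) and CCL16 (2.25), and 8 lower (8.21% and 14.4% of all genes). Between lymphatic and blood barcodes 4 of 10 were higher, with CXCL13 at 3.66, and 0 lower (8.64% and 6.82% of all genes). In the epithelial gate the neutrophil attractant CXCL8 (1.78) was the 1 of 17 to be higher, 8 being lower, against 20.1% and 22.5% of all genes. In the B gate 17 of 20 were lower (28.7% of all genes).

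The 13 receptor genes were spread over the gates. Those called higher and lower numbered 3 and 3 of 13 tested in the T gate (8.86% and 21.2% of all genes), 1 and 2 of 13 in the myeloid gate (4.05% and 6.45%) and 1 and 6 of 13 in the B gate (23.7% and 28.7%). They numbered 1 and 10 of 12 in the epithelial gate (20.1% and 22.5% of all genes), 1 and 6 of 12 in the stromal gate (13.4% and 11.7%) and 3 and 4 of 12 in the endothelial gate (8.21% and 14.4%). CCR9, the CCL25 receptor, was a T gate transcript at 0.496, 0.242, 0.484, 0.638, 0.960 and 0.968 on days 0, 1, 3, 7, 14 and 21 (log2 4.98) and higher in CD8 than in CD4 barcodes (2.24, edgeR adjusted p = 0.0061). The CCL21 receptor CCR7 was also higher in the T gate (0.78) and was lower in CD8 than in CD4 barcodes (−1.14). CCR6, the CCL20 receptor, was higher in the B gate (1.40, edgeR adjusted p = 0.0377), and CX3CR1 in the myeloid gate (6.32).

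The atypical receptors bind chemokines without signalling for migration. ACKR1 (log2 9.59) and ACKR2 (5.46) were higher in the endothelial gate, and lymphatic over blood barcodes gave −2.88 for ACKR1 and 6.34 for ACKR2. ACKR3, the second CXCL12 receptor, was higher in the endothelial (2.68) and stromal (2.23) gates, and ACKR4, which binds CCL21 and CCL25, in the epithelial gate (4.83).

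The genes whose pattern over pools was most like that of each ligand were named by Pearson's r of log2 levels over 31 pools (library by exclusive gate, at least 50 barcodes). The pools of 1 library share depth and free RNA, so the values are descriptions. CCL5 was most like IPCEF1 (0.953), PTPN22 (0.952) and UBASH3A (0.949). CCL25 was most like SLC51B (0.971), a bile acid exporter subunit, HSD17B2 (0.970) and GOLT1A (0.965). CCL20 was most like BCL2L15 (0.911), DMBT1 (0.882), a mucosal scavenger protein, and REG3G (0.881), an antimicrobial lectin.

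For CCL28 the nearest were NEUROG3 (0.970), the enteroendocrine progenitor factor, ACTL6B (0.916) and C18H7orf57 (0.894), on very few UMIs. CCL14 was nearest to STAB1 (0.930), SIGLEC11 (0.917) and MRC1 (0.893), genes known from macrophages and sinusoidal endothelium. CX3CL1 was nearest to MARCH3 (0.954), PDPN (0.951) and OSMR (0.949), and CCL21 to PRND (0.994), SOX7 (0.986) and APLNR (0.980). The pools held only 134 CX3CL1 and 117 CCL21 UMIs, and they did not separate lymphatic from blood endothelium. CCL11 was nearest to SYNPR (0.995), FREM1 (0.993) and DPT (0.993), CXCL12 to ELN (0.979), which encodes elastin, GPX8 (0.979) and FAT4 (0.977), and CXCL14 to AXL (0.896), ADAMDEC1 (0.884) and PPP1R14A (0.865).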

How the data were processed

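Ileal mucosa of piglets was measured by droplet single-cell 3′ RNA sequencing, with 1 library per age. The deposited files are unfiltered matrices of UMI counts per gene and barcode, which the authors made with Cell Ranger (version 3.1.0, STAR alignment, genome susScr11, per the submitters' processing notes and the file headers). The labels give kit version 3, the methods kit v.2. No normalised values were used, and 0 columns of per-sample values were left out.

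Barcodes with at least 1000 UMIs and 500 genes were kept. Doublets were not removed and no caller was run; barcodes of 1 gate only served as the alternative. Levels are summed UMIs per 10000 UMIs of a pool, with exact Poisson 95% intervals, and shares of barcodes have exact (Clopper-Pearson) intervals. For thinned shares each barcode was drawn down to 1000 UMIs. A level of 0 was bounded by 3 UMIs.

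Contrasts of pools with at least 10 barcodes were fitted on summed counts with edgeR 4.0.16 in R 4.3.3 (quasi-likelihood, TMM, filterByExpr, library as a block), with Benjamini-Hochberg adjustment over all genes tested and a call at 0.05; p-values measure recurrence over libraries. The fit was checked on simulated data in which a small set of genes was changed, as many up as down. That check does not cover contrasts in which many genes differ. DESeq2 1.42.0, library size alone, no filter, other thresholds and leaving out each library were alternatives. Named genes were the 10 ligands, the gate and marker genes, the ligands' 13 receptors and scavengers, the other 22 chemokine ligand genes of the files, and for each ligand the 3 genes with the highest Pearson r of log2(UMIs per 10000 + 0.01), among genes with at least 100 UMIs. The members, gates and lists were chosen with earlier results of these data known. Python 3.11.15, numpy 2.4.6, pandas 2.3.3, scipy 1.17.1 and matplotlib 3.10.9 were used. Some genes of the lists are not reported here by name.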

Additional observations from a re-analysis of the deposited data

How the results depend on the processing

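Each age had 1 library, so ages were not tested, and sparse ligands (CCL28, CX3CL1, CCL21) were limited by depth. Between ages, no paired analysis was possible because each age held 1 library. The contrasts within libraries were paired, with the library as a block. Scaling by library size alone moved the median log2 fold change of all genes by 0.13 (epithelial), 0.10 (myeloid), 0.38 (stromal), 0.25 (endothelial), −0.29 (B), 0.12 (lymphatic) and 0.26 (enteroendocrine), and DESeq2 by 0.15 (myeloid), 0.26 (endothelial) and −0.13 (B). Of the single-ligand values, 54 of 55 kept direction and call with library size alone, 55 of 55 at 500 UMIs and 200 genes, and 40 of 55 with DESeq2.

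With DESeq2, 6 of the 10 ligands were called in the epithelial gate (10 in the main analysis), 3 in the T gate (6) and 2 between lymphatic and blood barcodes (4). Over all genes, DESeq2 called 3875 higher and 3554 lower in the epithelial gate (3097 and 3474 in the main analysis). In the T gate it called 1429 higher and 2342 lower (1356 and 3251). DESeq2 called 2749 genes in the myeloid gate (1603), 1618 in the endothelial gate (3430), 181 between CD8 and CD4 (280) and 419 between lymphatic and blood barcodes (1430). CCL21 in the epithelial gate turned to 3.60 and CCL11 in the T gate to 1.35. With gate thresholds doubled, the counts were 2722 genes and 4 ligands (myeloid; 2 ligands in the main analysis), 105 (CD8 against CD4), 4153 and 4 (crypt; 1742 and 1), and 219 and 1 (muscle; 342 and 2). With no filter they were 1 ligand (myeloid), 575 genes (CD8 against CD4), 2730 and 2 (crypt), 4 ligands (enteroendocrine; 2) and 666 and 4 (muscle). In the myeloid fit with no filter, 531 of 18326 genes were higher and 926 lower. In the enteroendocrine fit with no filter, 1532 of 17224 genes were higher and 1844 lower. In barcodes of 1 gate only they were 2977 (myeloid), 454 (CD8 against CD4), 770 (lymphatic), 4279 and 2 (crypt), 1 ligand (enteroendocrine) and 611 (muscle), and myeloid CCL20 turned to −1.22. The enteroendocrine fit in barcodes of 1 gate called 1500 of 11325 genes higher and 1376 lower. With pools of at least 50 barcodes they were 992 (myeloid), 2113 (endothelial), 4148 and 3 (crypt) and 3571 (enteroendocrine; 2263).

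The day 1 to day 0 ratios moved as follows. With thresholds doubled, CCL5 gave 0.321, CCL14 1.08 and CXCL14 0.399. As a mean over barcodes, CCL5 gave 0.227, CCL14 0.849, CCL25 0.553, CCL20 6.36, CCL11 1.57 and CXCL14 0.396. In barcodes of 1 gate only, CCL5 gave 0.223, CCL14 0.798, CCL25 0.416, CCL20 15.7, CCL11 1.53, CXCL12 1.07 and CXCL14 0.352. The cause of these changes was not tested.

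Leaving out 1 library at a time gave 4520 to 6286 genes and 6 to 10 ligands (epithelial; 6 without day 1), 2992 to 4251 and 2 to 7 (T; both lowest without day 1, 3 ligands without day 0), 447 to 1294 and 0 to 2 (myeloid; 447 without day 1, 640 without day 3 and 992 without day 7, with 0 ligands without day 0 or 3, by edgeR), 2640 to 4247 and 6 to 8 (stromal), 1077 to 3043 and 7 to 9 (endothelial; 1077 without day 1 and 1415 without day 0), 5988 to 7783 and 5 to 7 (B), 167 to 392 and 1 to 1 (CD8 against CD4; 167 without day 7), 46 to 4148 and 0 to 3 (crypt; 46 without day 0, 147 without day 1 and 4148 without day 3), 631 to 2835 and 2 to 3 (enteroendocrine; 631 without day 0 and 810 without day 1) and 205 to 507 and 1 to 3 (muscle; 205 without day 3). Crypt against enterocyte CCL25 ranged from −1.90 to 0.0105 (without day 0) and muscle against fibroblast CXCL12 from −0.60 to 0.19 (without day 0). The lymphatic contrast has 2 libraries and was not refitted this way.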
